A study of Mus musculus with 6 samples.

Results

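The glycerol use and triglyceride synthesis genes are 10 genes taken by name for their places on the route from glycerol to stored fat: Aqp7, Gk, Pck1, Gpam, Gpat3, Gpat4, Agpat2, Lpin1, Dgat1 and Dgat2. All 10 were among the 8129 genes with reads in the series, and 8 of them passed the filter on low counts. Their transcripts were read as full-length cDNA on a nanopore sequencer, from interscapular brown adipose tissue, a heat-producing fat depot, of wild type C57BL/6N males aged 20 weeks. The comparison was between 3 libraries from mice kept alone at 4 °C for 24 h (cold replicates 4, 11 and 15, named by mouse number) and 3 libraries from control mice (control replicates 2, 9 and 14), and no mouse carried an engineered allele or received an agent. The records repeat the cold treatment for the controls too, and the grouping follows the titles and treatment tags. General husbandry was at 22 to 24 °C, and whether the controls were also housed alone is not stated, so single housing and cold cannot be told apart. The labels do not say that material was pooled, and p values measure only the spread between these libraries.

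Triglyceride is made by adding fatty acyl chains one after another to a glycerol 3-phosphate backbone. The backbone comes from glycerol by way of glycerol kinase, from glucose by way of glycerol 3-phosphate dehydrogenase, or from pyruvate and amino acids by glyceroneogenesis, in which the Pck1 enzyme is a key step. Acyltransferases of the endoplasmic reticulum and the outer mitochondrial membrane then form lysophosphatidic and phosphatidic acid, lipin removes the phosphate, and a DGAT enzyme adds the last chain. Brown fat breaks down and rebuilds triglyceride at the same time when it is active, and is known for a glycerol kinase activity that white fat largely lacks.

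Levels are in CPM, read counts divided by library size, with library sizes adjusted by the trimmed mean of M-values (TMM). Totals ran from 1014812 to 2982630 reads and each cold library was deeper than each control library, so that 3 reads, the floor used here, stood for 0.988 to 1.01 CPM in cold and 1.62 to 3.08 CPM in control libraries. All 11 brown adipocyte markers had reads, but Dio2 (4 reads), Ppargc1a (10 reads) and Prdm16 (1 read) had 0 in every control library. The summed level of these 11 markers was 48638 to 59086 CPM in control and 51795 to 55610 CPM in cold libraries, most of it Fabp4. Of the 8 tested ones Elovl3 was called higher (3.69 on the log2 scale), Cox8b (-0.98) and Adipoq (-0.88) were called lower, and Ucp1 was not called (-0.13). Skeletal muscle markers set 2 cold libraries apart. Their summed level was 123 to 962 CPM in control libraries and 186, 2857 and 13158 CPM in cold replicates 4, 11 and 15, with 10 of 12 markers read, Myh2 and Mylk2 at 0 and 0 of the 7 tested ones called by edgeR. Results are therefore also given without those libraries. Summed levels of the other marker lists were 66.5 to 119 CPM in control and 166 to 256 CPM in cold for white adipocytes (led by Retn, with Tcf21, Hoxc9 and Hoxc10 at 0), 29.2 to 46.2 and 26.7 to 39.3 CPM for endothelium (Tek and Vwf at 0), 52.8 to 86.3 and 53.0 to 122 CPM for macrophages (Adgre1, Cd68, Csf1r and Mrc1 at 0), 7.19 to 17.8 and 11.1 to 22.1 CPM for fibroblasts (Col1a1, Col3a1, Pdgfra and Fn1 at 0) and 14978 to 28132 and 16327 to 22521 CPM for red blood cells. The part of these cells in the results below was not tested.

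In the cold, the glycerol channel gene Aqp7, the glycerol kinase gene Gk, the acyltransferase gene Gpat4 and the last-step gene Dgat1 were higher, while Pck1 and the acyltransferase gene Agpat2 were lower. Lpin1 and Dgat2 did not pass the test, and Gpam and Gpat3 had too few reads to be tested. Thus 4 of the 8 tested members were called higher and 2 lower, at an adjusted p under 0.05 in edgeR's quasi-likelihood test with Benjamini-Hochberg adjustment over 2093 genes. Over all tested genes 33.2% were called, 18.1% higher and 15.1% lower. The median log2 change was 0.95 over the 8 members and 0.04 over all tested genes. Gk and Aqp7, with 2 to 11 reads in each control library, passed the filter through their cold reads. Gk thus had to differ if it was tested at all, and for Aqp7 the filter favoured a difference. The count and the median therefore carry no weight as support. The libraries of the groups did not overlap in the same 6 members, 4 with each cold library above each control library and 2 below, against 47.8% of all tested genes, 26% above and 21.8% below. In whole tissue, fewer cells of a type and less RNA per cell cannot be told apart.

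**Figure D1:**
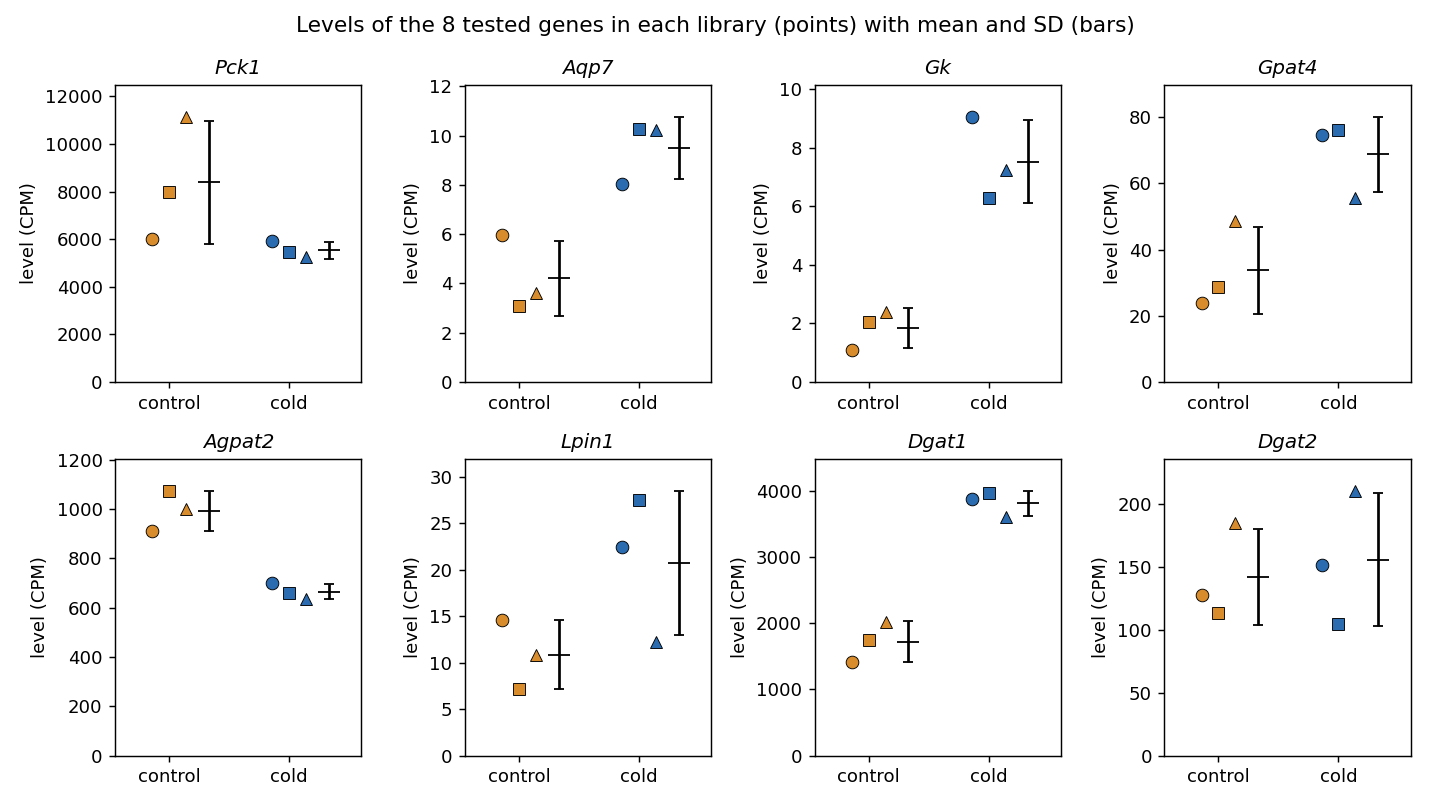
Levels in CPM (vertical axes, from 0) of the 8 tested genes in control (orange) and cold (blue) libraries, with circles for replicates 2 and 4, squares for 9 and 11 and triangles for 14 and 15. Bars are mean and SD (n = 3 per group). The groups do not overlap for Pck1, Aqp7, Gk, Gpat4, Agpat2 and Dgat1, and do for Lpin1 and Dgat2.

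Aqp7 encodes aquaglyceroporin 7, the channel through which glycerol crosses the adipocyte membrane (chr4:41033074-41048139 on GRCm38, minus strand). It was read at 5.95, 3.08 and 3.60 CPM in control replicates 2, 9 and 14 and at 8.06, 10.3 and 10.2 CPM in cold replicates 4, 11 and 15. Every cold library lay above every control library, and these levels rested on 3 to 31 reads per library. The change was a 2.15-fold rise (log2 change, cold minus control, 1.10 with a standard error of 0.37 implied by the F statistic, adjusted p = 0.0386). The log2 changes below are given with ± this standard error. The call was lost without control replicate 9 or 14, without each cold library in turn and in DESeq2, where adjusted p values ran from 0.0647 to 0.195. It was also lost with no filter on low counts (1.22, adjusted p = 0.0580) and without cold replicates 11 and 15 together (0.91, adjusted p = 0.388).

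Gk encodes glycerol kinase, which traps glycerol in the cell as glycerol 3-phosphate (chrX:85701937-85776819, minus strand). The control libraries held 2, 2 and 4 reads, or 1.08, 2.06 and 2.40 CPM, and the cold libraries 27, 19 and 22 reads, or 9.06, 6.29 and 7.25 CPM. The lowest cold level was well above the highest control level, although 2 of the control libraries were under the floor of 3 reads. Gk rose 4.11-fold (log2 change 2.04 ± 0.45, 95% interval 1.04 to 3.04, adjusted p = 0.00580). With no filter on low counts, where its cold reads did not decide that it was tested, the change was 2.15 (adjusted p = 0.00247). It was 2.07 without cold replicate 15, and Gk was left untested at equal depth and on either flow cell alone.

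The reads of Gk were spread over 4 protein-coding transcripts, which differ by short cassette exons within the coding sequence. Gk-202 held 31 of the 76 reads, Gk-206 held 25, Gk-201 held 13 and Gk-208 held 7. With 2 to 4 reads in a control library, a shift between them was not detectable at this depth. The exons are shown because their presence tells these transcripts apart: the first belongs to Gk-206, the second to Gk-202, and the third to Gk-202 and Gk-208, while Gk-201 has none of them. They lie on the minus strand at chrX:85749612-85749695 (84 bases, 2 reads on its transcript in control and 23 in cold), chrX:85739222-85739239 (18 bases, 2 and 29 reads) and chrX:85706238-85706324 (87 bases, 3 and 35 reads). The exon of Gk-206 lies opposite the antisense gene Gm14764, which had 0 reads. The transcripts also differ elsewhere, as Gk-201, with none of these exons, is the longest of them at 4340 bases.
Gk-206 exon: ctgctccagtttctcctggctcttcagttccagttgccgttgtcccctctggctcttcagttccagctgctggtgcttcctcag
Gk-202 exon: aaaatctctcatagcctg
Gk-202 and Gk-208 exon: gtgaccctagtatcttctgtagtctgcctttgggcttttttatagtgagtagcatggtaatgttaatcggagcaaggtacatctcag

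Pck1 encodes the cytosolic phosphoenolpyruvate carboxykinase, which in fat leads carbon from oxaloacetate toward glycerol 3-phosphate (chr2:173153048-173159273, plus strand). It was the most read of the 10 genes, at 6029, 8001 and 11148 CPM in control replicates 2, 9 and 14 and 5913, 5444 and 5241 CPM in cold replicates 4, 11 and 15. The control libraries were far apart and the cold libraries close together, and control replicate 2 lay only just above cold replicate 4. Pck1 fell by 0.60 ± 0.20 on the log2 scale, to 0.659 of the control level (8392 ± 2582 to 5533 ± 344 CPM, SD, n = 3, adjusted p = 0.0384). The call was lost without any library other than control replicate 2. Without control replicate 14 the change was -0.37 (adjusted p = 0.123) and without cold replicate 15 it was -0.55 (adjusted p = 0.0964). It was also lost when library totals replaced TMM (-0.53, adjusted p = 0.0549) and without cold replicates 11 and 15 together (-0.45, adjusted p = 0.388).

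As background, transcription of Pck1 is known to respond to cyclic AMP through an element in its proximal promoter. The 250 bases before its RefSeq start (GRCm38.p6, chr2:173152823-173153072, plus strand) are shown because they hold the core of that element, TGACG, read here on the opposite strand as CGTCA, 90 to 86 bases before the start and set in capitals.
Pck1 promoter: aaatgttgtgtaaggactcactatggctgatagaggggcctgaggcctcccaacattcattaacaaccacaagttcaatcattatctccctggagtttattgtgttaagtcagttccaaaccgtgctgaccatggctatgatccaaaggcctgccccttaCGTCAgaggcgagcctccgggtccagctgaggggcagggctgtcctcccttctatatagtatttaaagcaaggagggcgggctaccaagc

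Of the 10 members 7 had entries in the RefSeq promoter table, with 9 windows in all, and Gpat4, Dgat1 and Dgat2 had none. The windows were searched on both strands for TGACG, for the nuclear receptor hexamer AGGTCA, to which receptors such as the PPAR family bind in pairs, and for the TATA box TATAAA, none of which overlap each other here. TGACG was in 3 of the 9 windows (Pck1, Gpam and Gpat3) and in 17.8% of the 32851 windows of all genes. AGGTCA was in 4 of the 9 (both of Aqp7, 1 of Gpam and that of Lpin1) against 14.0% of all windows, and TATAAA in 0 of the 9 against 12.4%. The windows of Aqp7 overlap and share the same AGGTCA match, so the 4 of 9 counts that site more than once. All these matches are a description of letters, not of bound sites. The windows of Agpat2 and Gk and the other window of Gpam held none of these motifs and are not shown. The windows before the starts of Aqp7-201 (chr4:41048137-41048386, minus strand) and Lpin1-202 (chr12:16610967-16611216, minus strand) are shown because reads were counted on transcripts annotated to begin there. Both hold AGGTCA or its opposite strand TGACCT, set in capitals, and do not stand for the other members.
Aqp7 promoter: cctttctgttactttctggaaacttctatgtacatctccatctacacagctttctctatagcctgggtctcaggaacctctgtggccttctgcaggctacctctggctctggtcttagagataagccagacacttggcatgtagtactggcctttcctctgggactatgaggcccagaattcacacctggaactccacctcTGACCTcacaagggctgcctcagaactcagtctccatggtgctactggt
Lpin1 promoter: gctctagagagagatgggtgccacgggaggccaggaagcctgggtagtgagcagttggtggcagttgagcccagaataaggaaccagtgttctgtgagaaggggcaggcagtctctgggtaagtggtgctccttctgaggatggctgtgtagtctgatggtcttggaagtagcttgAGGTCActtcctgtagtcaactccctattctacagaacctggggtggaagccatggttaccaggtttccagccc

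Pck1 transcripts included a fully spliced protein-coding form, Pck1-201, and a form annotated as a retained intron, Pck1-202, which held 86.3 and 13.3% of its reads. Pck1-202 held 14.7, 13.0 and 14.0% of Pck1 reads in control replicates 2, 9 and 14 and 13.2, 12.1 and 12.7% in cold replicates 4, 11 and 15. These shares overlapped between the groups. Both forms fell, by 0.58 ± 0.20 (Pck1-201, adjusted p = 0.0403) and 0.73 ± 0.21 (Pck1-202, adjusted p = 0.0208) on the log2 scale in the edgeR fit over transcripts, in which 32.7% of 2787 transcripts were called, 17.4% higher and 15.3% lower. Pck1-201 is 2661 bases and Pck1-202 is 2728 bases long, so the forms also differ outside the retained stretch. That stretch, 103 bases at chr2:173158089-173158191 between coding exons, is printed with its splice site dinucleotides in capitals.
Pck1 retained intron: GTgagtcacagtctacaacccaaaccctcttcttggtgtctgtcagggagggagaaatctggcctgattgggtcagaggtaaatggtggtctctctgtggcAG

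The first acylation of glycerol 3-phosphate is carried out by Gpam on the outer mitochondrial membrane and by Gpat3 and Gpat4 in the endoplasmic reticulum. Nearly all reads for this step were on Gpat4 (chr8:23171265-23208346, minus strand). Gpat4 stood at 23.8, 28.8 and 48.6 CPM in control replicates 2, 9 and 14 and at 74.5, 76.1 and 55.7 CPM in cold replicates 4, 11 and 15. Each cold library was above each control library, with control replicate 14 and cold replicate 15 nearest to each other. Gpat4 rose 2.03-fold (log2 change 1.02 ± 0.29, adjusted p = 0.0200). The call was lost without control replicate 9 (0.90, adjusted p = 0.0739), cold replicate 4 (0.94, adjusted p = 0.0672) or cold replicate 11 (0.95, adjusted p = 0.0652) and held without cold replicate 15 (1.16, adjusted p = 0.0171). It was also lost on flow cell 1 alone (0.74, adjusted p = 0.0585) and without cold replicates 11 and 15 together (1.19, adjusted p = 0.0584).

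Gpam (chr19:55067268-55127238) had 6 reads in all, 1 in control replicate 14, 3 in cold replicate 4 and 2 in cold replicate 15. Gpat3 (chr5:100845713-100899102) had 1 read, in cold replicate 15. Neither gene was tested, and no fold is given. Whether transcripts of different lengths were amplified and read equally well was not tested. These few reads therefore do not show how much RNA of either gene the tissue held. Gpat4 held 98.3 to 100% of the reads of these 3 genes in every library. Its mean share differed by -0.62 percentage points between cold and control (exact two-sided permutation p = 0.4 with 3 libraries per group, adjusted over 4 shares 0.8), and those of Gpam (0.43 points, exact permutation p = 0.7) and Gpat3 (0.19 points, exact permutation p = 1) lay on at most 3 reads per library. The 0 reads of Gpat3 in control libraries allow a share of up to 6.82, 10.7 and 3.66% in replicates 2, 9 and 14, for counting error only. Reads of several PCR copies are not independent molecules, which holds for every interval and floor here. The antisense gene 4930458D05Rik and Gm42987, which overlap exons of Gpat3, had 0 reads.

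Agpat2 encodes the acyltransferase that makes phosphatidic acid, and its loss in people is a cause of congenital lipodystrophy (chr2:26593057-26604417, minus strand). It stood at 909, 1072 and 998 CPM in control replicates 2, 9 and 14 and at 698, 660 and 636 CPM in cold replicates 4, 11 and 15. All control libraries were higher than all cold libraries, and the spread within each group was small (993 ± 81.6 and 665 ± 31.3 CPM, SD, n = 3). Agpat2 fell by 0.58 ± 0.16 on the log2 scale, to 0.670 of the control level (95% interval -0.93 to -0.23, adjusted p = 0.0168). The call was lost without each cold library in turn (-0.54 to -0.64, adjusted p = 0.0522 to 0.0703), with no filter on low counts (-0.45, adjusted p = 0.205) and without cold replicates 11 and 15 together (-0.46, adjusted p = 0.425). Exons of Agpat2 and of Egfl7, on the opposite strand, overlap by up to 64 bases, and Egfl7 had 8 to 24 reads per library.

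Lpin1 encodes lipin 1, the phosphatidic acid phosphatase that yields diacylglycerol and also acts in the nucleus on gene expression (chr12:16535669-16610966, minus strand). It was read at 14.6, 7.19 and 10.8 CPM in control replicates 2, 9 and 14 and at 22.5, 27.5 and 12.2 CPM in cold replicates 4, 11 and 15. Cold replicate 15 lay among the controls, so the groups overlapped. The log2 change of 0.87 ± 0.36 did not pass (95% interval 0.08 to 1.67, adjusted p = 0.0862). Without cold replicate 15, the library with the most muscle reads, it was 1.15 (adjusted p = 0.0240), and without cold replicates 11 and 15 together 1.04 (adjusted p = 0.141).

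Lpin1 reads came mainly from a pair of protein-coding transcripts with different first exons, Lpin1-201 (5581 bases) and Lpin1-202 (5433 bases). The first exon is 53 bases in Lpin1-201 and 190 bases in Lpin1-202, so the forms also differ elsewhere. Lpin1-201, which starts in an exon at chr12:16589718-16589770, held 131 of 239 reads, and Lpin1-202, which starts in the upstream exon at chr12:16610777-16610966, held 97. The share of Lpin1-201 was 57.5 ± 12.8% in control and 56.3 ± 13.5% in cold libraries (SD, n = 3), a difference far smaller than the spread. These shares rest on the authors' assignment of reads to transcripts, and whether the reads reach either first exon was not tested.

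Dgat1 and Dgat2 encode unrelated enzymes that both add the last acyl chain to diacylglycerol. Dgat1 (chr15:76502015-76511953, minus strand) stood at 1410, 1742 and 2018 CPM in control replicates 2, 9 and 14 and at 3875, 3968 and 3598 CPM in cold replicates 4, 11 and 15. The lowest cold library was far above the highest control library. Dgat1 rose 2.21-fold (1723 ± 305 to 3814 ± 192 CPM, SD, n = 3, log2 change 1.15 ± 0.16, 95% interval 0.79 to 1.504, adjusted p = 0.000453). It was called in all 15 alternative fits, with log2 changes of 1.01 to 1.27, and was 1.20 without cold replicate 15 and 1.22 without cold replicates 11 and 15.

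Dgat2 (chr7:99153658-99182719, minus strand) stood at 128, 113 and 185 CPM in control replicates 2, 9 and 14 and at 152, 105 and 211 CPM in cold replicates 4, 11 and 15. The lowest and the highest library were both cold ones. The log2 change was 0.13 ± 0.29 (adjusted p = 0.754), with an interval of -0.50 to 0.76 that includes falls and rises of moderate size. Leaving out control replicate 9 gave -0.04, and leaving out cold replicate 15 gave -0.14.

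The balance of these enzymes was compared within each library, where no scaling is needed. Dgat1 held 91.7, 93.9 and 91.6% of Dgat1 and Dgat2 reads in control replicates 2, 9 and 14 and 96.2, 97.4 and 94.5% in cold replicates 4, 11 and 15. Every cold share was above every control share. The means, 92.4 ± 1.30% and 96.0 ± 1.49% (SD, n = 3), differed by 3.64 percentage points, with an exact two-sided permutation p of 0.1, the smallest that 3 against 3 libraries can give, and 0.4 adjusted over the 4 shares tested. The nearest libraries had overlapping exact 95% Clopper-Pearson intervals, 92.7 to 94.97% in control replicate 9 and 94.0 to 94.9% in cold replicate 15. Per kilobase of transcript the means were 93.6 ± 1.11% and 96.7 ± 1.25%.

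**Figure D2:**
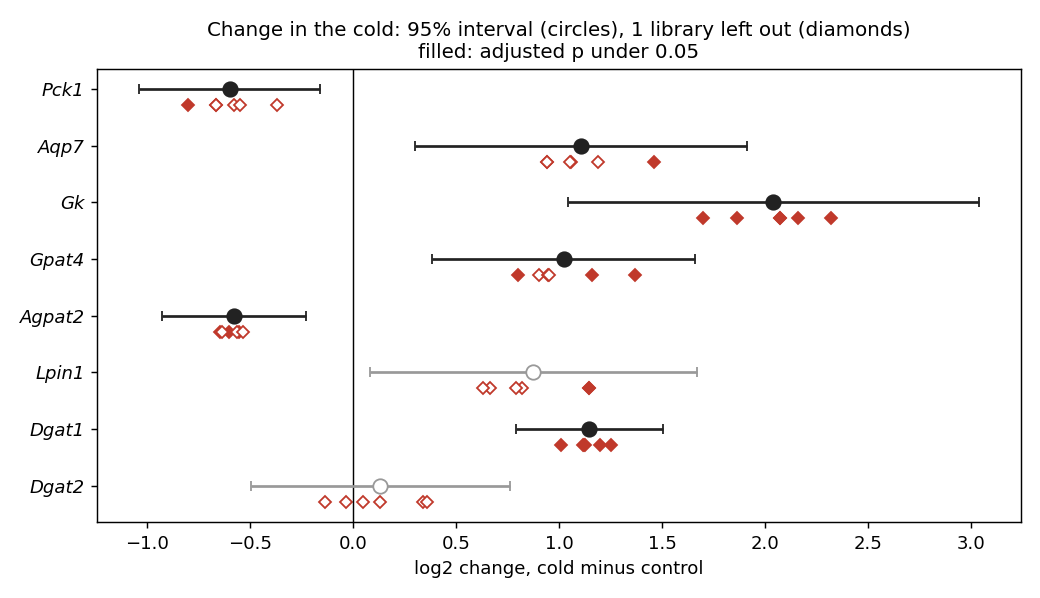
Log2 change, cold minus control (horizontal axis), of the 8 tested genes with its 95% interval (circles and bars) and with 1 library left out at a time (diamonds), filled where the adjusted p is under 0.05. Every diamond of Dgat1 is filled, and those of Dgat2 lie from -0.14 to 0.36, on both sides of 0. Those of Gk are filled too, but Gk had to differ if it was tested at all, so they carry no weight as support.

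Full-length reads also allow the annotated transcripts of each gene to be compared. One form held 95.3 to 99.6% of the reads of Aqp7 (Aqp7-201), Gpat4 (Gpat4-201), Agpat2 (Agpat2-201), Dgat1 (Dgat1-201) and Dgat2 (Dgat2-201), in each case a protein-coding one. The next most read forms were Aqp7-202 (5 reads), Gpat4-205 with a retained intron (18 reads), Agpat2-202 (274 reads), Dgat1-211 (442 reads) and the decay target Dgat2-206 (8 reads). Of Gpam the 6 reads fell mostly on Gpam-202 (4 reads), with 1 read each on Gpam-201 and Gpam-205, and the 1 read of Gpat3 was on Gpat3-202. Agpat2, Lpin1, Dgat1 and Pck1 had at least 2 tested transcripts, and a shift of usage within the gene was called for 0 of these 4 by diffSpliceDGE of edgeR (adjusted p = 1.00 each, 0 of 4 with an unadjusted p under 0.05, the smallest being 0.0561 for Agpat2). Over all 539 genes with at least 2 tested transcripts, 1.67% were called.

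Levels of different genes were compared per kilobase of the transcripts counted. A read of this protocol is meant to span a whole molecule, whatever its length, so this scale sets long transcripts such as those of Gpat4, Lpin1 and Gk lower than CPM does. In control libraries Pck1 (3152 ± 970 CPM per kilobase, SD, n = 3) was followed by Dgat1 (920 ± 163), Agpat2 (671 ± 55.1), Dgat2 (62.9 ± 16.8), Gpat4 (6.195 ± 2.41), Lpin1 (1.99 ± 0.68), Aqp7 (1.68 ± 0.609) and Gk (0.432 ± 0.160). Gpam and Gpat3 came last. Libraries overlapped between Lpin1 and Aqp7 and between Gpam and Gpat3, and did not between the other neighbours in this order. In cold libraries the order was the same, but Pck1 (2078 ± 129 CPM per kilobase) and Dgat1 (2035 ± 102) now overlapped too. On the CPM scale they did not, with 5241 to 5913 CPM for Pck1 and 3598 to 3968 CPM for Dgat1 in cold libraries. Nor did Lpin1 (7.19 to 14.6 CPM) and Aqp7 (3.08 to 5.95 CPM) overlap on that scale in control libraries. In cold libraries Lpin1 and Aqp7 stood at 12.2 to 27.5 and 8.06 to 10.3 CPM, also apart. Pck1 made up 70.8 to 77.3% of the summed CPM of the 10 genes in control libraries and 52.9 to 55.0% in cold libraries, and Dgat1 was the next largest part. The summed level itself overlapped, at 8521 to 14415 CPM in control and 9772 to 10752 CPM in cold libraries.

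**Figure D3:**
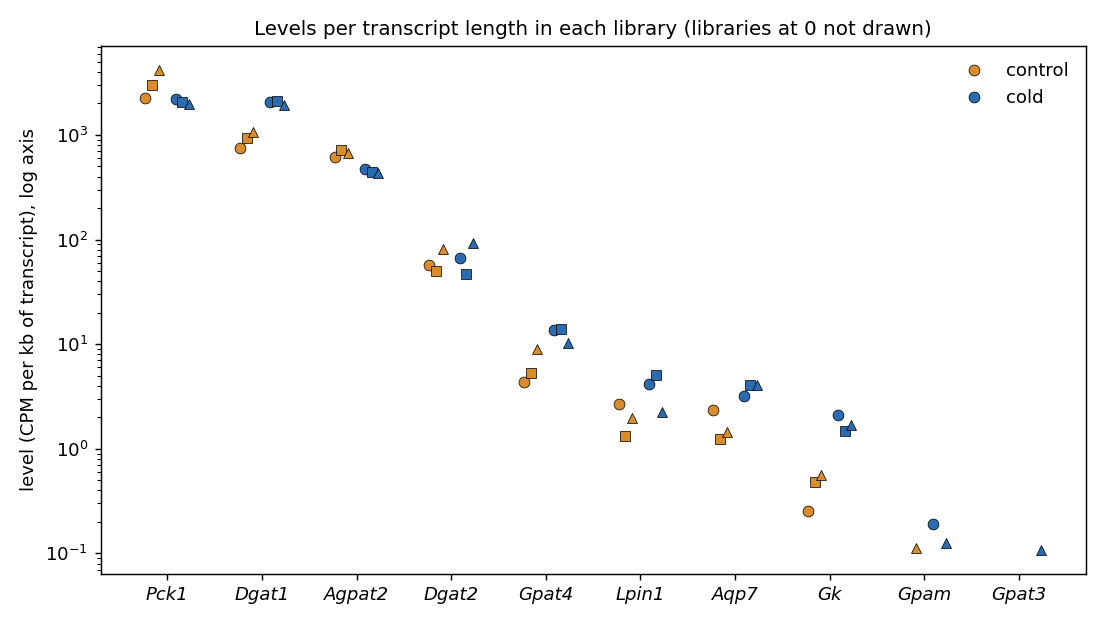
Level in CPM per kilobase of counted transcript (vertical log axis) of the 10 genes in each control (orange) and cold (blue) library, with circles for replicates 2 and 4, squares for 9 and 11 and triangles for 14 and 15, and libraries at 0 not drawn. Pck1, Dgat1 and Agpat2 stand highest, Gk lowest of the tested genes, and the cold points of Pck1 and Dgat1 lie at the same height.

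The genes whose profile over the 6 libraries was nearest to that of Dgat1 were sought among the 2085 other tested genes that are not members, by the Euclidean distance between log2 CPM values centred on each gene's mean. They were Glmp, which encodes a lysosomal membrane protein (distance 0.162), Grn, the gene of the lysosomal protein progranulin (0.218), and Arf1, a small GTPase of vesicle traffic (0.240), where the median gene was at 1.68. Mean levels in control and cold libraries were 12.4 ± 3.20 and 27.0 ± 2.02 CPM for Glmp, 24.6 ± 3.10 and 57.4 ± 5.71 CPM for Grn, and 160 ± 25.8 and 319 ± 25.0 CPM for Arf1 (SD, n = 3). All of them were thus chosen for being higher in the cold by about as much as Dgat1, and no test is given.

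The neighbouring steps of the pathway were described by 7 further lists with 93 gene names in all. Of these names 92 were in the annotation, and 35 genes were tested. Of the tested ones 7 were called higher and 3 lower in the cold, with a median log2 change of 0.08 against 0.04 over all 2093 genes, of which 18.1% were called higher and 15.1% lower. The share called among these 35 genes was thus near that of all tested genes, and the counts in single lists are to be read against the same shares. Of the genes that activate acyl chains for the pathway, in the acyl-CoA synthetase list, 4 of 10 were tested, 3 called higher and 1 lower. Acsl5 rose from 170 ± 55.1 to 438 ± 86.0 CPM (SD, n = 3, log2 change 1.37 ± 0.27, adjusted p = 0.00313) and Acsl1, a long-chain synthetase abundant in fat, rose from 43.8 ± 9.74 to 81.1 ± 4.65 CPM (0.89 ± 0.23, adjusted p = 0.0123). The call of Acsl1 was lost on flow cell 1 alone (0.68, adjusted p = 0.0711) and without cold replicates 11 and 15 together (0.94, adjusted p = 0.128). Slc27a2, a transporter and very long-chain synthetase, was at or under the floor in all control libraries (1.62, 1.03 and 0.60 CPM) and at 12.1, 8.94 and 9.55 CPM in cold replicates 4, 11 and 15. Acss2, which makes acetyl-CoA from acetate and so acts on a short acid rather than a storage fatty acid, was at 11.4, 42.1 and 23.4 CPM in control replicates 2, 9 and 14 and at 1.34, 2.32 and 1.65 CPM in cold replicates 4, 11 and 15. Like Gk and Aqp7, these genes passed the filter only through the group in which they are high, Slc27a2 through the cold and Acss2 through the control libraries, so that their calls carry no weight as support.

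On the backbone side, Gpd1, the cytosolic glycerol 3-phosphate dehydrogenase, stood at 49962, 69689 and 69208 CPM in control replicates 2, 9 and 14 and at 73004, 72634 and 64908 CPM in cold replicates 4, 11 and 15. These groups overlapped, and the change of 0.16 ± 0.14 was not called (95% interval -0.16 to 0.47, adjusted p = 0.425). Gpd2, its mitochondrial counterpart, was at 54.3 ± 22.4 and 37.7 ± 15.2 CPM (-0.52 ± 0.35, adjusted p = 0.284). Among the 5 tested genes of backbone supply 1 rose and 1 fell. Tpi1, which interconverts the triose phosphates, had means of 152 ± 39.7 (control) and 396 ± 34.5 CPM (cold), a rise of 1.38 ± 0.22 (adjusted p = 0.000975). The aldolase gene Aldoa, which splits fructose 1,6-bisphosphate into them, fell from 34168 ± 11003 to 17016 ± 3487 CPM (-1.01 ± 0.24, adjusted p = 0.00933). Near copies of Aldoa (5 genes, 90.6 to 93.2% identical over at least 500 bases) had 0 reads.

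Of the other genes of the acylation steps 2 of 14 were tested and 0 called by edgeR. Agpat3, an acyltransferase gene related to Agpat2, had means of 883 ± 139 (control) and 1020 ± 23.0 CPM (cold) (0.21 ± 0.17, adjusted p = 0.368). In the droplet assembly list 2 of 8 tested genes rose and 0 fell: Cidec, which helps droplets to grow, rose by 0.65 ± 0.13 (3986 ± 226 to 6266 ± 345 CPM, adjusted p = 0.00313), and Plin5, which ties droplets to mitochondria, rose by 1.31 ± 0.34 (6.73 ± 2.46 to 15.9 ± 3.49 CPM, adjusted p = 0.0133). The rise of Plin5 was lost without cold replicate 4 (1.20, adjusted p = 0.0521) and on flow cell 1 alone (0.83, adjusted p = 0.139), and that of Cidec without cold replicates 11 and 15 together (0.69, adjusted p = 0.111). Plin1 (0.57 ± 0.23, adjusted p = 0.0821), Plin2 (-0.12 ± 0.19), Cidea (0.08 ± 0.13) and the seipin gene Bscl2 (0.06 ± 0.20) were not called.

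Of the 6 tested genes of triglyceride breakdown 1 rose and 1 fell. Mgll, the monoglyceride lipase, rose from 5181 ± 682 to 7183 ± 587 CPM (0.47 ± 0.14, adjusted p = 0.0272), a call lost without control replicate 14, cold replicate 4 or cold replicate 11 and in DESeq2 (changes of 0.41 to 0.47, adjusted p = 0.0522 to 0.109), and without cold replicates 11 and 15 together (0.49, adjusted p = 0.283). Pnpla3, a lipid hydrolase and acyltransferase gene induced with fat synthesis, fell from 69.0 ± 38.1 to 6.31 ± 1.19 CPM (-3.41 ± 0.39, adjusted p = 0.000143). The genes of the main lipases, Pnpla2 (18720 ± 2071 and 18327 ± 2365 CPM, -0.03 ± 0.14) and Lipe (-0.20 ± 0.23), and the lipase gene Ces1d (-0.28 ± 0.18) were not called. In the phospholipid branch 0 of 5 tested genes were called by edgeR, with Pcyt2 at 0.30 ± 0.21 and Chkb at 0.76 ± 0.28 (adjusted p = 0.0562). Of the regulators 5 of 16 were tested and 0 called, among them Cebpb (-0.06 ± 0.31).

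**Figure D4:**
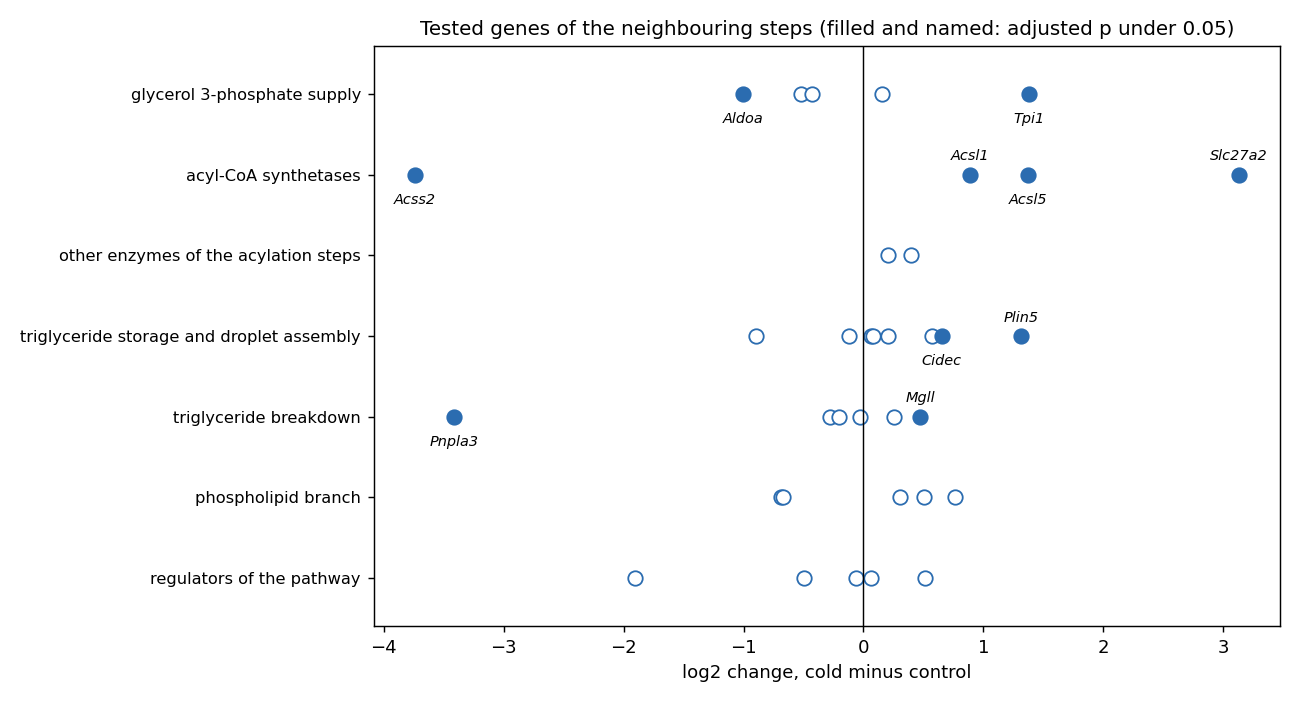
Log2 change, cold minus control (horizontal axis), of each of the 35 tested genes in the 7 lists of neighbouring steps (rows), filled and named where the adjusted p is under 0.05. The 7 filled points right of 0 and 3 left of it lie in 4 of the lists, and none of the acylation, phospholipid or regulator genes is filled.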

How the data were processed

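The deposited files hold raw read counts per Ensembl transcript, 1 file for each of 2 flow cells per library (12 files). Per the submitters' processing notes minimap2 and GRCm38 were used; a version, and how reads that fit several transcripts were assigned, are not given in the sources used here. Per the labels' protocols, poly(A) RNA was made into cDNA with the cap-selecting TeloPrime kit over 27 PCR cycles, with no molecular identifiers named. The extraction text names eWAT, a white depot, and the tissue label brown fat was followed. Counts were summed over flow cells and transcripts of a gene (GENCODE M21; 14671 of 14693 transcripts matched without version, the rest at most 0.00433% of a library). Between flow cells, 0 of 52 member by library pairs differed at adjusted p under 0.05 (exact binomial test, 1 unadjusted).

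Gene tests used edgeR 4.0.16 under R 4.3.3 (filterByExpr by group at a minimum count of 10, TMM, robust quasi-likelihood F test, no covariate, fit also run on simulated data), and transcript usage with diffSpliceDGE. DESeq2 1.42.0 was an alternative. Shares were compared by exact permutation tests (scipy 1.17.1), and near copies sought with blastn 2.17.0. The members and gene lists were chosen with earlier results of these data known. Named are all members, list genes that were called or averaged at least 32 CPM, the 3 genes nearest to Dgat1 and the 2 most read transcripts of a member; further transcripts of Gk, Gpam and Gpat3 were named after their values were seen. Protein sequences were not used here.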

Additional observations from a re-analysis of the deposited data

How the results depend on the processing

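The call of Dgat1 held in all 15 alternatives, that of Gpat4 in 10 of 15, of Agpat2 in 10 of 15 and of Pck1 in 8 of 15. Gk and Aqp7 were tested in 12 alternatives and called in 12 and 4 of them, but with a filter on low counts they are tested only where their cold reads carry them through it. Members called higher numbered 4 in the reported fit, 2 at equal depth, 1 on flow cell 1 alone, 2 on flow cell 2 alone, 2 without cold replicates 11 and 15 together (an alternative chosen after seeing the muscle markers, which assumes that the lone cold library varies like the others) and 2 to 4 with 1 library left out. At equal depth and on 1 flow cell fewer genes passed the filter. Members called lower numbered 2, and 1 with library totals in place of TMM, 1 with no count filter, 0 without cold replicates 11 and 15, and 0 to 2 with 1 library left out. Lpin1 was called higher with no count filter (1.00, adjusted p = 0.0379) and when cold replicate 15 was left out (1.15, adjusted p = 0.0240). Dgat2 changed sign without control replicate 9 (-0.04) and without cold replicate 15 (-0.14), within a range of -0.14 to 0.36 with 1 library left out. Genes called over the whole table went from 378 higher and 317 lower to 201 and 120 without cold replicates 11 and 15, and to 275 to 360 and 223 to 327 with 1 library left out. The neighbouring genes called higher were 7 and then 4 without those libraries, those called lower 3 and then 5 on flow cell 1 alone and 3 to 6 with 1 library left out, and genes called for transcript usage 9 and then 2 to 6 with 1 left out. Other causes of these moves were not tested. No filter moved the median of all genes by 0.12 on the log2 scale, and no other scaling by over 0.1. No paired analysis was possible because the mouse numbers differ between the groups.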
